A study of Mus musculus with 23 samples.

Results

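The genes described here are 37 markers of T cells and natural killer (NK) cells, read in bulk RNA of mouse lung. They were chosen by symbol, from knowledge of these cells and with earlier results of these data known, and all 37 symbols given are among the 24411 genes of the deposited tables. The 23 libraries came from 7 groups of C57BL/6 mice kept in a pathogen-free barrier and given no treatment. Rarres1 knockout (KO) lungs and wild-type (WT) lungs were taken at embryonic day 19.5 (E19.5), just before birth, from embryos whose sex the labels do not give (3 libraries each), and at 10 months from males (3 each). From males at 18 months there were 3 lung tumours of KO mice (numbered 1, 3 and 6), 5 non-tumour lungs of KO mice (numbered 1, 2, 3, 6 and 7) and 3 WT lungs. Tumour and non-tumour samples with the same number carry the same animal code in the labels, and all tumours came from KO mice, so that tumour and genotype cannot be told apart against WT. The labels do not say how the knockout was made, how the tumours were dissected, or whether any libraries were prepared together.

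T cells recognise antigen through a receptor whose signalling is carried by the CD3 chains. The kinase Lck, held by the co-receptors CD4 and CD8, phosphorylates these chains, and the kinase ZAP-70 then binds them and phosphorylates the adaptor LAT. NK cells lack that receptor and read the balance of activating and inhibitory receptors on the target cell, but share with CD8 T cells the granules of perforin and granzymes, and the T-box factors T-bet and Eomes. Conventional T cells begin to leave the mouse thymus in numbers around birth, and in the adult lung both cell types lie in the vessels, the airway wall and the tissue.

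Total expected counts per library were 24845078 to 28674624 in KO and 23911050 to 28364731 in WT lungs at E19.5. At 10 months they were 26841216 to 32042771 in KO and 28076361 to 30212556 in WT lungs. At 18 months they were 25520153 to 32039116 in tumours, 23661181 to 46566642 in KO non-tumour lungs and 27347782 to 29307989 in WT lungs. Rarres1 itself had 2, 0, 1 and 0 reads in all libraries together of KO E19.5 lung, KO lung at 10 months, tumours and KO non-tumour lung at 18 months. In WT it had 105 reads at E19.5, 130 at 10 months and 187 at 18 months. The members together took 1248 to 1936 reads of a KO library and 1598 to 1898 of a WT library at E19.5, 3854 to 13187 of a tumour library, and 7460 to 20359 of the other adult libraries. Every adult library held reads of all 37 members, and single E19.5 libraries held reads of 30 to 36. Levels below are CPM, counts scaled to library size by TMM over all 23 libraries, and genes are compared with each other only in FPKM, which also scales for gene length. The tissue label was met by Sftpc, the surfactant gene of type 2 alveolar cells, at 8824 to 42870 CPM in every library.

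The members lie on 15 chromosomes, some of them side by side (GRCm38). Cd3g and Cd3d, read from opposite strands, are 1338 bases apart on chromosome 9, with Cd3e a further 11683 bases on. No other gene of the table lies between these, between Cd8b1 and Cd8a (35.9 kb apart on chromosome 6), or between Klrd1 and Klrk1 (11.5 kb, chromosome 6). Exons of Cd247 overlap those of Pou2f1, exons of Foxp3 those of Ccdc22 and Ppp1r3f, and exons of Gata3 those of 9230102O04Rik in the GENCODE annotation. The sources used here do not say whether strand was used in counting, so reads of Cd247, Foxp3 and Gata3 may include some of those genes. RefSeq gave the bases around the start of 26 members (GRCm38.p6). The 250 bases before the start are shown for 4 members on which the results turn: Zap70, the single member called in the tumours, Lck, which acts just before it, Klrb1c, with the next smallest adjusted p in the tumours, and Gzmb, which did not rise between E19.5 and adult lung. Capitals mark the 6-base cores AGGAAG of ETS factors and TGTGGT of RUNX factors, on either strand.
Zap70, chr1:36761548-36761797, plus strand: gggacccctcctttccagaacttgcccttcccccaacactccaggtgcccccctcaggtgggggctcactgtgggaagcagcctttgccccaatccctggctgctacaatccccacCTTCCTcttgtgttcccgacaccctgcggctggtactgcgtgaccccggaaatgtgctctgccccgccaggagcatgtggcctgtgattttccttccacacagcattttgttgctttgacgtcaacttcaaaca
Lck, chr4:129573642-129573891, minus strand: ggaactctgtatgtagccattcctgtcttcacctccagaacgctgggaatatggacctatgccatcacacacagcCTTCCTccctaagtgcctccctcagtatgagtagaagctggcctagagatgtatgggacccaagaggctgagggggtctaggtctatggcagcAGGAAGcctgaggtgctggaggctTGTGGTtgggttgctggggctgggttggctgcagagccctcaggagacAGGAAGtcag
Klrb1c, chr6:128788642-128788891, minus strand: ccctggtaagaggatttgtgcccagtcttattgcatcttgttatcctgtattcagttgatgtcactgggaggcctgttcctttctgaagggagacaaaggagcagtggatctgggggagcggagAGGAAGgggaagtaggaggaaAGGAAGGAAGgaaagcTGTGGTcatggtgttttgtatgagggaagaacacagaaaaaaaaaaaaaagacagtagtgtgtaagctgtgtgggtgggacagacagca
Gzmb, chr14:56262335-56262584, minus strand: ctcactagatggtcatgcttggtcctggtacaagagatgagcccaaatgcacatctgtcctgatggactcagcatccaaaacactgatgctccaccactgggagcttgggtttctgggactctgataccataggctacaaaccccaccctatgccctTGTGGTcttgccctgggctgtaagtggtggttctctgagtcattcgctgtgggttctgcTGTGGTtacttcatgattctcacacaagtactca
Zap70 has 1 match to AGGAAG, Lck 3, Klrb1c 3 (of which a pair share letters) and Gzmb 0, whereas TGTGGT is found 0 times before Zap70, 1 time each before Lck and Klrb1c and 2 times before Gzmb. Over the 26 member windows 53.8% held AGGAAG, against 28.6% of the 17224 windows of all genes, and 38.5% held TGTGGT, against 12.1%. The T-box letters AGGTGT were in 34.6% of member windows, against 11.2%. The letters CTTTGA of TCF and LEF factors were in 15.4%, against 13.2%, and the E-box CAGCTG in 7.69%, against 12.2%. These are matches of letters and not bound sites, and member windows had a lower GC content (median 49.4%, against 55.6%).

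In FPKM, adult lungs shared their most abundant members. Ltb, the lymphotoxin beta that lymphocytes carry to build lymphoid tissue, stood first in every adult group: 19.2 in tumours, 33.6 in KO non-tumour lung and 28.2 in WT lung at 18 months, and 24.3 in KO and 23.9 in WT lung at 10 months. Cd2, an adhesion receptor of T and NK cells, Thy1, a surface protein of T cells that some fibroblasts and neurons also carry, and the transcription factor gene Tcf7 were among the first 5 in each of these groups. Foxp3, the factor of regulatory T cells, was the lowest member in KO lung at 10 months (0.253 FPKM) and in both non-tumour groups at 18 months (0.478 in KO and 0.200 in WT). In E19.5 lung the order was another: Tcf7 led with 18.0 FPKM in KO and 17.9 in WT lung, Thy1 followed with 4.20 and 5.43, and Gzmb with 2.30 and 2.44. All other members lay lower, and the median member had 0.153 FPKM in KO and 0.230 FPKM in WT lung, compared with 3.73 in KO and 3.02 in WT lung at 10 months.

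**Figure D1:**
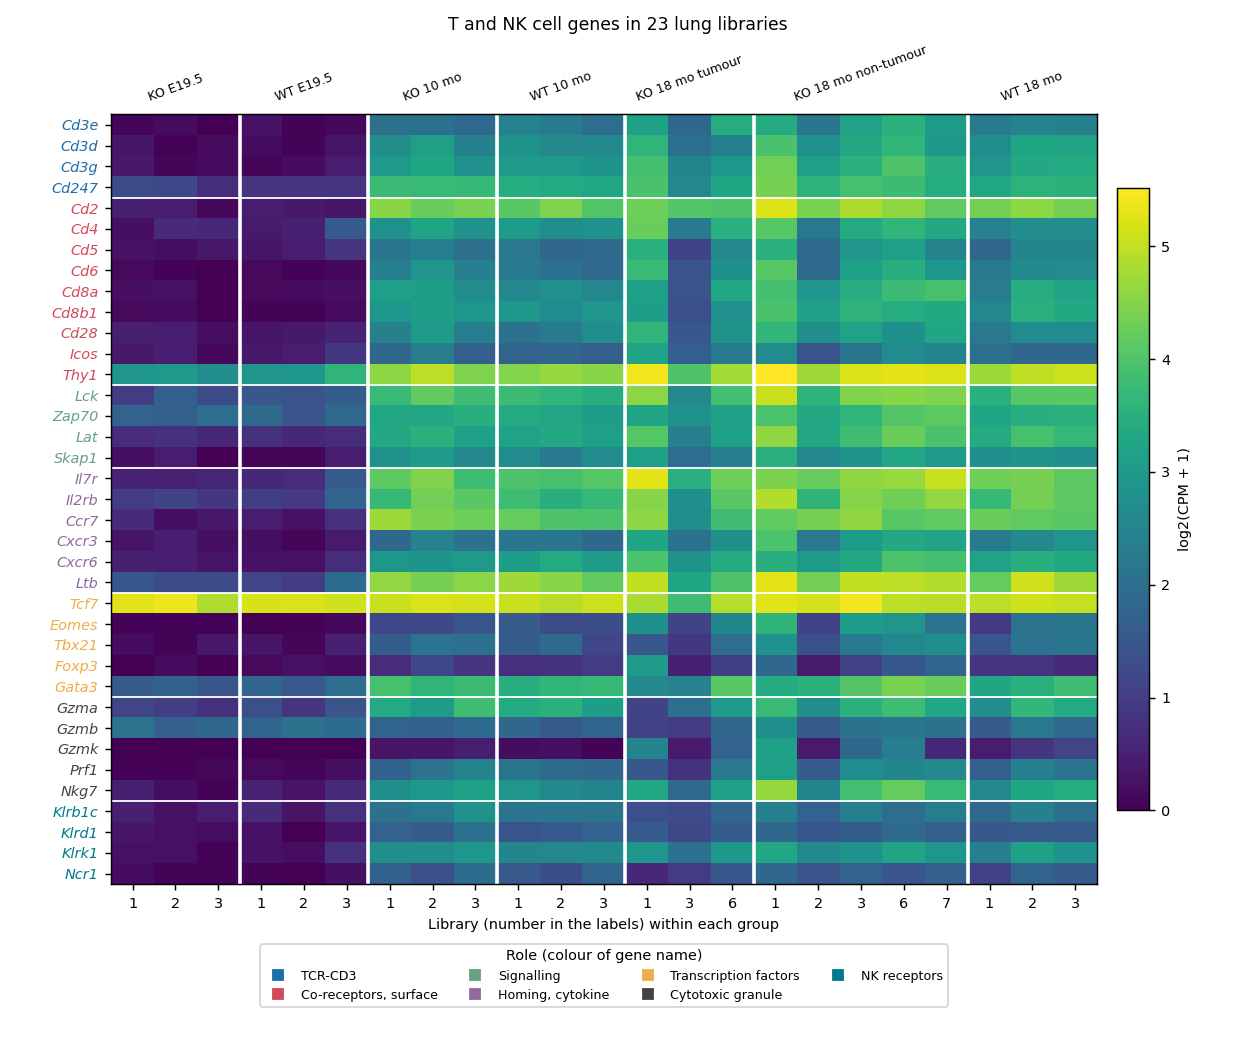
Level of the 37 T and NK cell genes in every library, as log2(CPM + 1) from dark (0) to yellow, with genes in rows, coloured by role, and libraries in columns by group. The 6 E19.5 libraries are dark in nearly all rows apart from Tcf7 and Thy1, and among adult libraries tumour 3 is the darkest.

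Between E19.5 and 10 months nearly the whole set came up, in both genotypes. Calls below rest on edgeR's quasi-likelihood test, with p-values adjusted over all genes tested (Benjamini-Hochberg) and a threshold of 0.05. Of 36 members tested, 34 rose in KO lung and 34 in WT lung, and 0 fell in either. In KO lung 60.5% of all genes tested were called, 31.1% as higher, and in WT lung 62.8%, 31.6% as higher. The median log2 fold change of the members tested was 4.13 in KO and 3.68 in WT lung, against 0.003 and −0.0003 over all genes tested. Most members pass the filter on low counts only through their adult level, so these counts describe the members and do not test them as a set. With no such filter 35 of 37 were called higher in each genotype. The libraries of the 2 ages did not overlap for 35 members, higher at 10 months, in KO lung (30.5% of all genes with reads) and for 35 in WT lung (30.2%). In bulk tissue more cells of a type and more RNA per cell cannot be told apart.

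The CD3 chains, which carry the signal of the T cell receptor, were near absent in embryonic lung. Cd3e had 3.12, 3.09 and 2.72 CPM in KO lungs at 10 months, against 0.0668, 0.114 and 0 CPM at E19.5. In WT lungs it had 4.47, 3.86 and 2.95 CPM at 10 months, against 0.208, 0.0370 and 0.0808 CPM at E19.5. All 6 adult lungs thus lay above all 6 embryonic ones, by 5.49 ± 0.47 on the log2 scale in KO (± SE) and 5.02 ± 0.43 in WT (adjusted p = 2.3e-05 and 9.4e-06, edgeR). Cd3d and Cd3g rose by 5.28 and 5.32 in KO, and by 5.25 and 5.2 in WT. Cd247, the zeta chain, which NK cells also use, started higher, at 1.11 ± 0.412 CPM in KO and 0.795 ± 0.0157 CPM in WT embryos (mean ± SD, n = 3 each), and rose by 3.44 and 3.52.

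All 9 co-receptors and surface proteins rose. Cd8b1, the beta chain of CD8, had 6.48, 7.51 and 6.43 CPM in KO lungs at 10 months, against 0.10, 0.114 and 0 CPM at E19.5, a log2 change of 6.44 ± 0.41, and 6.51 in WT. Cd8a, the alpha chain, rose by 5.74 in KO and 5.34 in WT lung. Cd6, a scavenger-receptor-like protein of the T cell surface, rose by 6.52 and 5.37, and Cd2 by 6.13 and 5.84. Cd5, a relative of Cd6, rose by 4.06 and 2.74, the co-stimulatory receptors Cd28 by 4.06 and 3.66 and Icos by 3.49 and 2.26. Cd4 rose by 3.99 ± 0.37 in KO and 2.84 ± 0.65 in WT lung; here WT embryo 3 had 1.94 CPM and the other embryos 0.167 to 0.608 CPM. Thy1 changed least of these, by 1.97 and 1.49, with 22.8, 30.2 and 20.8 CPM in KO lungs at 10 months and 6.38, 6.88 and 5.49 CPM at E19.5.

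All 4 signalling genes rose. Lck rose by 3.23 ± 0.27 in KO and 2.58 ± 0.16 in WT lung, Lat by 3.83 and 3.66, and Skap1, an adaptor that links the receptor to integrins, by 5.11 and 4.84. Zap70 was already read in embryos, at 2.34, 2.21 and 2.96 CPM in KO and 2.74, 1.78 and 2.75 CPM in WT lungs, and rose by 1.87 and 1.79. The 6 homing and cytokine genes rose as well. Ccr7, which guides naive T cells and dendritic cells to lymph nodes, had 25, 20.5 and 18.6 CPM in KO lungs at 10 months, against 0.601, 0.152 and 0.281 CPM at E19.5, and rose by 5.89 in KO and 5.26 in WT. The receptor for interleukin 7, Il7r, rose by 5.23 and 3.82, and the beta chain of the interleukin 2 and 15 receptors, Il2rb, by 3.99 and 2.98. The chemokine receptors Cxcr3 and Cxcr6, carried by effector and tissue-resident cells, rose by 3.71 and 4.23 in KO and by 4.04 and 4.53 in WT, and Ltb by 3.82 and 3.67.

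Tcf7 was the exception among the transcription factors. It had 32.8, 35.7 and 34.8 CPM in KO lungs at 10 months, against 37.8, 40.8 and 27.9 CPM at E19.5, and 32.5, 29.4 and 33.0 CPM in WT lungs at 10 months, against 35.4, 36.0 and 33.8 CPM at E19.5. Its log2 change was −0.05 ± 0.13 in KO and −0.16 ± 0.07 in WT lung (adjusted p = 0.757 and 0.0848, edgeR); the KO ages overlapped, and the WT adults lay just below the WT embryos. Tcf7 encodes TCF1, which T cells need to develop and which also acts in Wnt signalling of other cells. Eomes, Tbx21 (T-bet) and Gata3, factors of NK cells, effector T cells and helper or innate lymphoid cells, rose by 5.13, 4.20 and 2.66 in KO, and by 5.27, 3.05 and 2.18 in WT. Eomes rested on 125 reads in KO and 141 in WT lungs at 10 months, against 3 reads in each set of embryos, a ratio of 39.2 in KO (95% binomial interval 13.1 to 192.7) and 43.6 in WT (14.6 to 214). Foxp3 had 77 reads in KO lungs at 10 months and 3 in KO embryos, a ratio of 24.1 (7.96 to 119.7), and its fitted change was 2.5 ± 0.41 in WT.

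Cytotoxic genes split. Prf1, the pore-forming perforin, had 2.27, 3.28 and 4.63 CPM in KO lungs at 10 months, against 0.0334, 0.0380 and 0.0801 CPM at E19.5, and rose by 5.97 in KO and 4.64 in WT. Nkg7, a granule membrane protein, rose by 4.99 and 3.69, and the protease gene Gzma by 3.30 and 2.76. Gzmb, the best known of these proteases, had 2.42, 2.29 and 2.83 CPM in KO lungs at 10 months, against 3.27, 2.24 and 2.65 CPM at E19.5, and 2.54, 1.97 and 2.41 CPM in WT lungs at 10 months, against 2.43, 3.22 and 2.87 CPM at E19.5. The ages overlapped in both genotypes, with log2 changes of −0.12 ± 0.22 in KO and −0.31 ± 0.21 in WT (adjusted p = 0.647 and 0.228, edgeR). Gzmk, a granzyme of memory CD8 T cells, had 25 reads in KO and 10 in WT lungs at 10 months and 0 in either set of embryos, which is at least 7.84-fold higher in KO and at least 3.09-fold higher in WT when all embryos of a genotype are set at 3 counts in sum. All 4 NK receptors rose: Klrk1 (NKG2D) by 5.28 in KO and 3.80 in WT, Klrb1c (NK1.1) by 3.74 and 2.75, Ncr1 (NKp46), the receptor most restricted to NK cells, by 4.84 and 4.85, and Klrd1 (CD94) by 3.56 and 3.69.

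**Figure D2:**
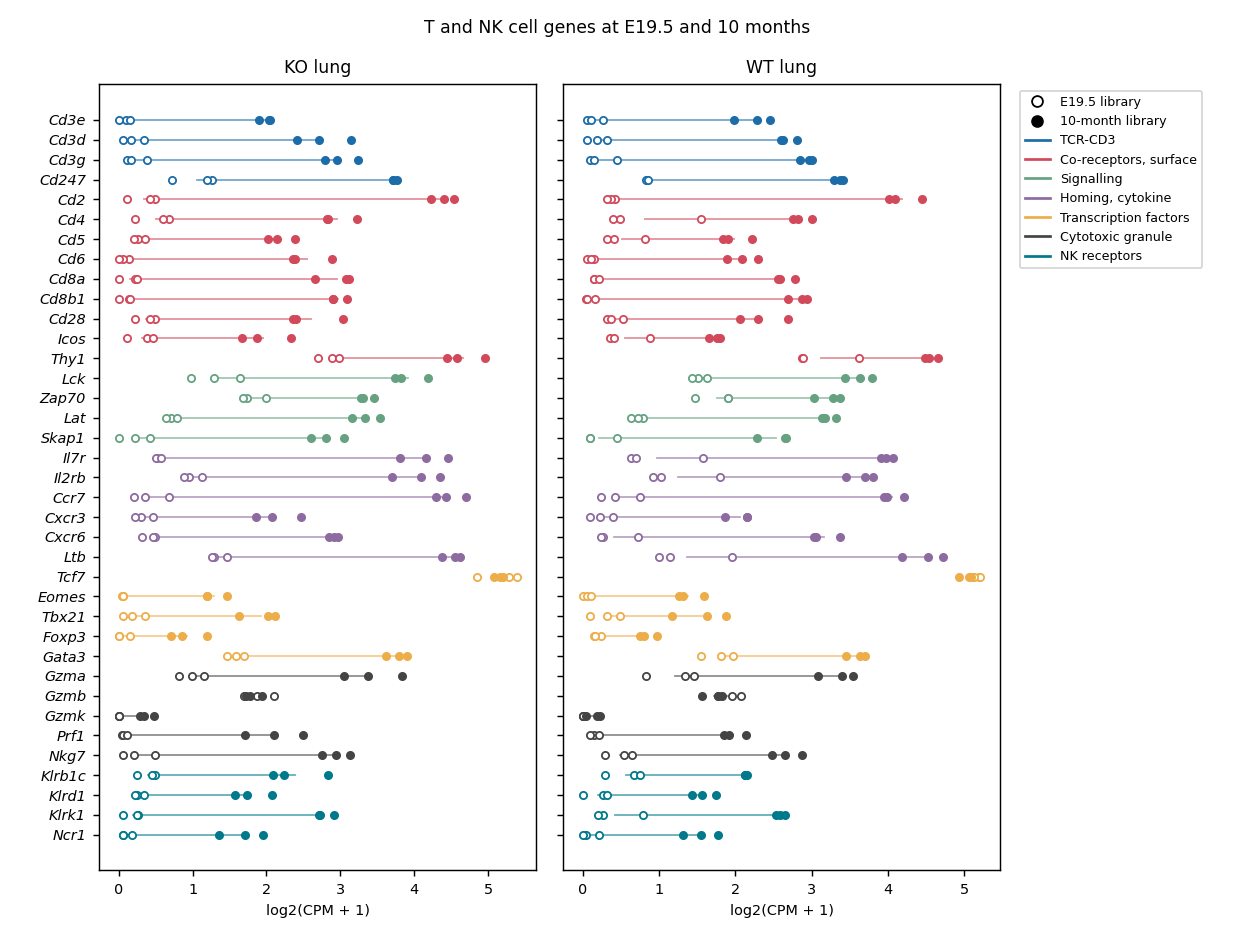
Level of each T and NK cell gene at E19.5 (open points) and 10 months (filled points) in KO lungs (left) and WT lungs (right), as log2(CPM + 1), with 1 point per library and a line between the means of the ages. Filled points lie to the right of open points in 35 of 37 rows of each panel, and Tcf7 and Gzmb are the rows where they do not.

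A further 65 genes of T and NK cells were listed for comparison and are not members, and 61 of them were in the table. Of those tested, 50 of 54 rose and 1 fell in KO lung, where 31.1% of all genes tested were called higher. In WT lung 46 of 52 rose and 2 fell, where 31.6% were called higher. These genes too were chosen with earlier results known, and some pass the filter on low counts only through their adult level. The counts thus describe the list and do not test it. The chemokine gene Ccl5 (5.25 ± 0.20 in KO) and the lymphocyte transcription factors Ikzf3 (3.96 ± 0.15) and Runx3 (3.54 ± 0.18) were among those with the smallest adjusted p in KO. In WT these included the leukocyte surface protein gene Cd52 (2.18 ± 0.10) and Ikzf3 (3.47 ± 0.18). Zbtb16 fell in KO (−1.56) and Lef1 was among those that fell in WT (−0.68), both picked out after their values were seen. Several other leukocyte lists moved the same way, but not all: the 11 B and plasma cell markers tested were called higher in both genotypes, and the summed level of 5 markers of all leukocytes was 659 to 667 CPM in KO lungs at 10 months, against 106 to 170.1 CPM in KO embryos, and 534 to 596 CPM in WT lungs at 10 months, against 148 to 198 CPM in WT embryos. Of 10 alveolar macrophage markers 8 rose in each genotype. Of 8 neutrophil markers 5 rose and 0 fell in KO, and 3 rose and 2 fell in WT, and of 7 ILC2 markers tested 4 rose and 2 fell in KO, and 4 rose and 3 fell in WT. Mast cell and basophil markers had 0 that rose and 3 that fell in each genotype, with sums of 2.30 to 7.09 CPM in KO lungs at 10 months, against 12.7 to 15.2 CPM in KO embryos, and 2.68 to 4.67 CPM in WT lungs at 10 months, against 12.6 to 25.3 CPM in WT embryos.

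At E19.5 the knockout left no called member. Only 16 of 37 members had enough reads to be tested, 0 were called (0% of all genes tested), and Il7r alone had an unadjusted p under 0.05, where 0.941% of all genes did. DESeq2 and limma also called 0 members. Il7r had 0.434, 0.418 and 0.481 CPM in KO embryos, against 0.555, 0.629 and 1.98 CPM in WT embryos, a log2 fold change of −1.23 ± 0.53 (adjusted p = 1.00, edgeR). The WT side of that gap was mostly WT embryo 3, which had the highest value of its group in 29 of the 36 members with reads. That library also led its group in mast cell and basophil markers (25.3 CPM summed over 7 genes, and 12.8 and 12.6 CPM in WT embryos 1 and 2), whose part in the result was not tested. The median log2 fold change of the 16 members was −0.30, with 4 above 0, and −0.02 without WT embryo 3. Of the 33 comparison genes tested 0 were called, and the smallest p values were those of the activating receptor gene Cd226 (−1.12 ± 0.41) and of the surface protein gene Cd7 (−0.55 ± 0.30).

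At 10 months none of the 36 members tested was called between KO and WT lungs, at 1.52% of all genes tested, and limma called 0. An unadjusted p under 0.05 was reached by 5 members, where 17.4% of all genes reached it. Cd247 came closest, with 12.6, 12.1 and 12.1 CPM in KO lungs, against 9.65, 9.32 and 8.82 CPM in WT lungs. The groups did not overlap, and the log2 fold change was 0.40 ± 0.09 (adjusted p = 0.0654, edgeR). Ccr7 had 25, 20.5 and 18.6 CPM in KO and 17.4, 14.9 and 14.4 CPM in WT lungs, a change of 0.45 ± 0.12 (adjusted p = 0.120, edgeR), and was the single member called by DESeq2 (adjusted p = 0.0449), which called 4.15% of all genes. The other 3 were Cd6 at 0.57 ± 0.21 and Il2rb at 0.44 ± 0.18, both higher in KO, and Cxcr6 at −0.29 ± 0.13, lower in KO.

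The shifts at 10 months were small and mostly of one sign. At this age the log2 fold change was above 0 in 33 of 36 members, against 49.9% of all genes tested, and the median was 0.19. These members are not independent of each other, and markers of all leukocytes leaned the same way: 5 of 5 were above 0, with a summed level of 667, 659 and 660.3 CPM in KO lungs, against 578, 596 and 534 CPM in WT lungs. Their part in the result was not tested. Cd3e, Cxcr6 and Eomes were the 3 members below 0, Cd3e at −0.35 ± 0.19 with 3.12, 3.09 and 2.72 CPM in KO and 4.47, 3.86 and 2.95 CPM in WT lungs. Among 56 comparison genes 1 fell: Il18r1, a chain of the interleukin 18 receptor, had 110.5, 116 and 123 CPM in KO lungs, against 156, 165 and 176 CPM in WT lungs (−0.51 ± 0.07, adjusted p = 0.00902, edgeR). At 18 months it stood at −0.57 ± 0.14 (adjusted p = 0.233, edgeR), with 113, 138, 135, 85.8 and 112 CPM in KO non-tumour lungs, against 171, 174 and 169 CPM in WT lungs, again without overlap.

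At 18 months every member stood higher on average in KO non-tumour lung than in WT lung, and none passed the test. The log2 fold change was above 0 in 37 of 37 members, against 49.5% of all genes tested, with a median of 0.39. Members called numbered 0, where 0.0776% of all genes were called, and DESeq2 and limma called 0. An unadjusted p under 0.05 was reached by 4, all higher in KO, where 8.04% of all genes reached it. By role, the median was 0.64 for the 5 granule genes, 0.62 for the 5 transcription factors, 0.60 for the 9 co-receptors and surface proteins, 0.48 for the 4 CD3 chains, 0.42 for the 4 signalling genes, 0.30 for the 6 homing and cytokine genes and 0.20 for the 4 NK receptors.

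The 5 KO lungs differed among themselves. Lung 1 lay above all 3 WT lungs in 34 of 37 members, lung 6 in 29, lung 3 in 28 and lung 7 in 22, whereas lung 2 did so in 3 and lay below all WT lungs in 17. Lung 2 was the lowest KO lung in 32 members and lung 1 the highest in 27. Among the WT lungs, number 1 was lowest in 32. Such counts over all genes were not made for single lungs, so these describe the members only. Without KO lung 2 the median over the members was 0.53, and without WT lung 1 it was 0.31.

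Cd3e had 9.47, 3.47, 8.0, 10.4 and 7.28 CPM in KO non-tumour lungs 1, 2, 3, 6 and 7, against 3.74, 4.48 and 4.32 CPM in WT lungs. Lung 2 thus lay below the WT lungs and the other 4 well above them, and the log2 fold change was 0.88 ± 0.30 (adjusted p = 0.452, edgeR). Cd28 was the single member of 37 in which all 5 KO lungs exceeded all 3 WT lungs. Of all genes with reads, 2.99% did so. Cd28 had 11.3, 5.57, 8.15, 5.82 and 8.60 CPM in KO and 3.71, 5.39 and 5.32 CPM in WT lungs (0.71 ± 0.25, adjusted p = 0.462, edgeR). Cd4 stood at 0.92 ± 0.36 and Zap70 at 0.45 ± 0.20. Cd3g, Cd3d and Cd247 had 0.57, 0.34 and 0.39, and Lck, Lat and Skap1 0.59, 0.39 and 0.32. The CD8 chains stood at 0.60 for Cd8a, with 13.7, 6.32, 9.76, 12.7 and 14 CPM in KO and 4.02, 9.91 and 8.29 CPM in WT lungs, and 0.36 for Cd8b1. Cd6, Cd5, Icos, Thy1 and Cd2 followed at 0.86, 0.66, 0.53, 0.27 and 0.26.

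Effector genes differed widely between KO lungs. Gzmk had 7.76, 0.312, 2.65, 4.09 and 0.542 CPM in KO lungs, against 0.350, 0.802 and 1.24 CPM in WT lungs, so that lungs 1, 3 and 6 were high and lungs 2 and 7 lay within or below the WT range; the log2 fold change was 1.93 ± 0.92 (adjusted p = 0.644, edgeR). Nkg7 had 23.9, 4.64, 13.4, 17.4 and 12.1 CPM in KO and 5.04, 8.49 and 9.64 CPM in WT lungs (0.88 ± 0.42). Eomes, with 11, 1.17, 7.25, 6.35 and 3.29 CPM in KO and 0.910, 3.32 and 3.44 CPM in WT lungs, stood at 1.18 ± 0.63, and Tbx21 and Prf1 at 0.62 ± 0.39 and 0.64 ± 0.37. Foxp3 had 2.57, 0.312, 1.10, 1.88 and 2.48 CPM in KO lungs, against 0.770, 0.765 and 0.602 CPM in WT lungs, where 4 KO lungs lay above the WT lungs and lung 2 below them (1.21 ± 0.56, adjusted p = 0.633, edgeR). Cxcr3 was at 0.74, Gata3 at 0.46, Il2rb, Il7r and Cxcr6 at 0.36, 0.35 and 0.25, and Gzmb, Gzma and Ltb at 0.31, 0.18 and 0.20. Tcf7 stood at 0.12, Ccr7 at 0.12, and the NK receptors Klrd1, Ncr1, Klrk1 and Klrb1c at 0.24, 0.21, 0.19 and 0.07.

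Markers of several other leukocytes also stood higher on average in KO lung, and their part in the values of the members was not tested. The 5 markers of all leukocytes summed to 1081, 645, 962, 886 and 743 CPM in KO lungs 1, 2, 3, 6 and 7, against 579, 684 and 619.6 CPM in WT lungs, with 5 of 5 above 0. The 12 B and plasma cell markers summed to 720.2, 416, 515, 1243 and 893 CPM in KO and 450.5, 597 and 451 CPM in WT lungs, with 11 of 12 above 0. The 10 alveolar macrophage markers summed to 2249, 1611, 1529, 1162 and 997 CPM in KO and 1077 to 1160 CPM in WT lungs, with 9 of 10 above 0. In these sums lung 2 lay above the WT lungs and lung 7 below them. Much of each sum was Chil3 alone, with 1493, 959.5, 865, 551 and 495 CPM in KO and 603 to 644 CPM in WT lungs. The 7 ILC2 markers tested were all above 0. Neutrophil markers lay the other way, with 2 of 6 above 0, a median of −0.29 and summed levels of 117 to 169.9 CPM in KO and 147 to 246 CPM in WT lungs, as did mast cell and basophil markers (1 of 5 above 0, median −0.57). None of these markers was called.

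Genes of thymus and lymph node were listed as markers of tissue that a lung sample could carry along. The 10 thymocyte genes summed to 52.2, 37.3, 38.7, 44.4 and 43.8 CPM in KO lungs, against 31.9, 36.6 and 35.6 CPM in WT lungs, without overlap, and 5 of 5 tested were above 0 (median 0.58). Most of that sum came from genes that other cells express too, such as Cd1d1 (11.3 to 15.4 CPM in KO and 11 to 12.6 CPM in WT lungs). Of the genes more restricted to thymocytes, Rag2 had 0 reads in all 8 libraries, Ptcra had 0 to 0.0780 CPM in KO and 0 to 0.109 CPM in WT lungs, and Dntt 0.0775 to 0.450 CPM in KO and 0.175 to 0.248 CPM in WT lungs. The 5 thymic epithelial genes summed to 1.72 to 3.20 CPM in KO and 1.84 to 2.15 CPM in WT lungs, with 2 of 2 tested above 0, and Foxn1 had 0 reads in both groups. The 5 genes of lymph node stroma summed to 93.7 to 148 CPM in KO and 109 to 150.2 CPM in WT lungs, with 2 of 3 tested above 0. Of these, the chemokine gene Ccl19 had 6.29, 2.57, 3.24, 11 and 5.30 CPM in KO lungs 1, 2, 3, 6 and 7, against 2.52, 3.61 and 2.69 CPM in WT lungs. Cxcl13, which draws B cells to follicles, had 18.9, 4.48, 4.41, 14.1 and 4.92 CPM in KO and 6.68, 9.18 and 5.49 CPM in WT lungs, so that both were highest in KO lungs 1 and 6. Glycam1, a product of lymph node vessels, had 0 to 0.271 CPM in KO and 0 to 0.255 CPM in WT lungs. None of the genes of these 3 lists was called, and their part in the values of the members was not tested.

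Of 55 comparison genes of T and NK cells 0 were called by edgeR, 1 by DESeq2, and 15 had an unadjusted p under 0.05; next to Il18r1, the smallest p was that of the integrin gene Itgal, with 124, 86.9, 176, 102 and 122 CPM in KO and 73.0, 80.4 and 74.7 CPM in WT lungs (0.68 ± 0.19, adjusted p = 0.350, edgeR).

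**Figure D3:**
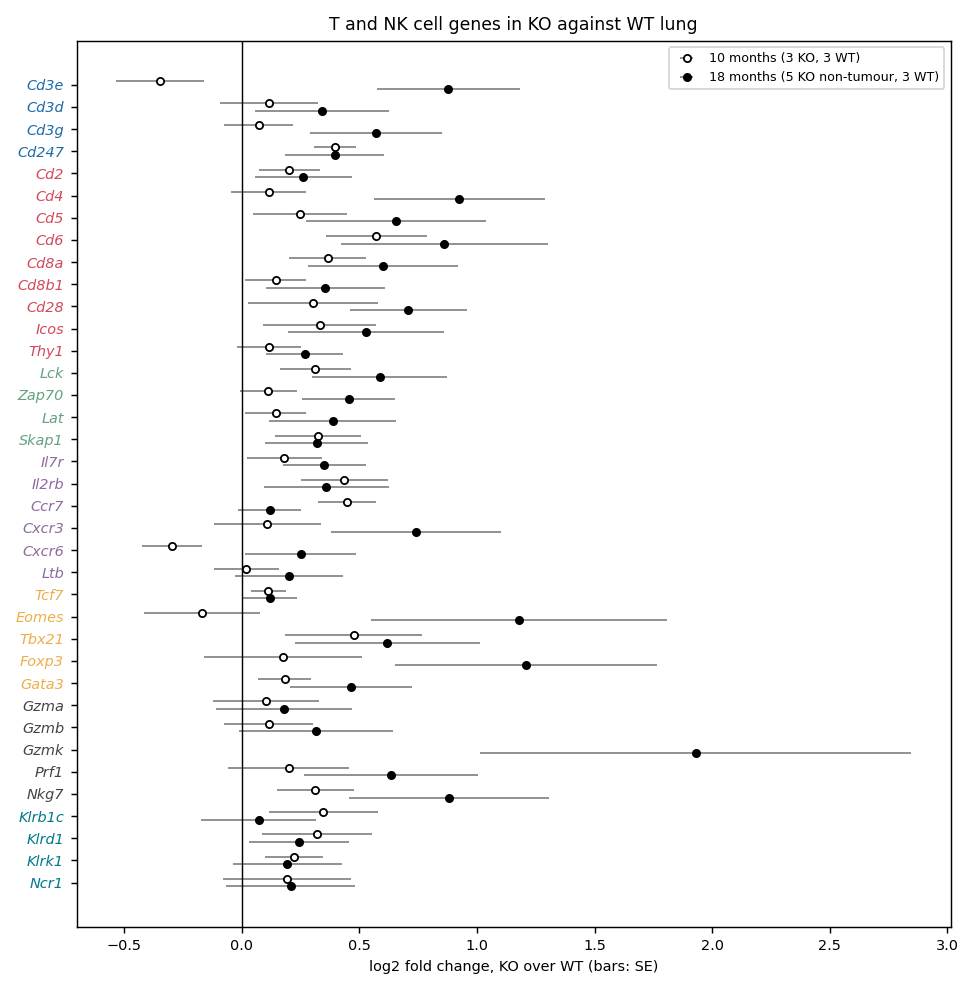
Log2 fold change of KO over WT lung for each T and NK cell gene at 10 months (open points) and 18 months (filled points), with bars of 1 SE and gene names coloured by role. All 37 filled points lie right of 0, as do 33 of 36 open points, and none of these changes was called.

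Most members had a lower mean level in tumours than in KO non-tumour lung, unevenly between tumours, and only Zap70 passed the test. Of 37 members 1 fell, Zap70, and 0 rose, where 13.8% of all genes tested were called and 6.60% were called lower. An unadjusted p under 0.05 was reached by 10 members, all lower in tumours, where 29.3% of all genes reached it in either direction. The median log2 fold change was −0.59, and 3 members were above 0. DESeq2, which called 20.6% of all genes, called 6 members lower, and limma called Zap70 alone. Tumour 3 was the lowest of the 3 tumours in 34 members, and without it the median was −0.25. Tumour 1 was the highest in 25, and without it the median was −0.94. The libraries of the 2 groups did not overlap, lower in tumours, for 3 members (Zap70, Cd8b1 and Tcf7; 8.85% of all genes with reads).

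Zap70 had 8.60, 6.11 and 7.85 CPM in tumours 1, 3 and 6, against 14.6, 9.08, 11.3, 15.6 and 16.5 CPM in KO non-tumour lungs 1, 2, 3, 6 and 7. Each tumour lay below each non-tumour lung, and the log2 fold change was −0.84 ± 0.23, a 1.79-fold lower level (adjusted p = 0.0403, edgeR). The call is close to the threshold: the adjusted p was 0.0763 with the animal as a block, and 0.0567 to 0.156 when tumour 1 or 3 or non-tumour lung 1, 3, 6 or 7 was left out. WT lungs held 8.50, 10.1 and 10.6 CPM. Lck, Lat and Skap1, next to ZAP-70 in the same pathway, stood at −0.66 ± 0.45, −0.76 ± 0.42 and −0.60 ± 0.34, none called.

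By role the lowest median was that of the 5 granule genes (−1.18), followed by the signalling genes (−0.71) and the NK receptors (−0.67). Gzma had 1.19, 3.04 and 6.91 CPM in tumours, against 12.1, 5.61, 10.7, 13.0 and 8.83 CPM in KO non-tumour lungs (−1.44 ± 0.50, adjusted p = 0.0912, edgeR). Here tumour 1 was lowest and tumour 6 within the range of the non-tumour lungs. Klrb1c had 1.54, 1.38 and 2.47 CPM in tumours and 4.25, 2.34, 4.19, 2.99 and 3.99 CPM in KO non-tumour lungs (−0.99 ± 0.30, adjusted p = 0.0596, edgeR). Prf1, Gzmb, Nkg7 and Tbx21 stood at −1.26 ± 0.53, −1.18 ± 0.44, −1.15 ± 0.52 and −1.25 ± 0.49. Ncr1 had 0.546, 0.947 and 1.84 CPM in tumours, against 2.61, 1.75, 2.34, 1.76 and 2.25 CPM in non-tumour lungs, overlapping through tumour 6 (−0.95 ± 0.39). Klrd1 and Klrk1 were at −0.37 and −0.38, Eomes at −0.58 and Gzmk at −0.36. The counts here turned on tumour 6: without it 9 members were called lower, namely Zap70, Gzma, Gzmb, Prf1, Klrb1c, Ncr1, Tbx21, Gata3 and Tcf7, and with all tumours kept DESeq2 called Zap70, Gzma, Gzmb, Klrb1c, Tbx21 and Cd8b1. The share of all genes called without tumour 6 is not given here, so the 9 are not set against it.

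Cd8b1 stood lower in every tumour than in any KO non-tumour lung, while the values of Cd4 were interleaved. Cd8b1 had 7.44, 1.54 and 5.97 CPM in tumours, against 14.3, 7.95, 11.1, 9.75 and 9.22 CPM in KO non-tumour lungs, without overlap (−1.08 ± 0.42, adjusted p = 0.125, edgeR), and Cd8a stood at −0.90 ± 0.48. Cd4 had 18.1, 3.75 and 10.3 CPM in tumours, against 15.9, 3.66, 9.54, 11.4 and 9.02 CPM in KO non-tumour lungs, a log2 fold change of 0.10 ± 0.51. Icos and Foxp3 were the other members above 0, at 0.18 ± 0.46 and 0.76 ± 0.85. For Foxp3 this was tumour 1: the tumours had 7.10, 0.394 and 1.06 CPM, against 2.57, 0.312, 1.10, 1.88 and 2.48 CPM in KO non-tumour lungs. Whether the change of Cd4 differs from that of Cd8b1 was not tested. Cd3e, Cd3d, Cd3g and Cd247 stood at −0.21, −0.63, −0.59 and −0.55, and Cd2, Cd5, Cd6, Cd28 and Thy1 at −0.61, −0.22, −0.38, −0.33 and −0.41. Il7r, Cxcr6, Ccr7, Il2rb, Cxcr3 and Ltb lay at −0.09, −0.12, −0.43, −0.52, −0.54 and −0.71, and Gata3 and Tcf7 at −0.79 and −0.60.

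**Figure D4:**
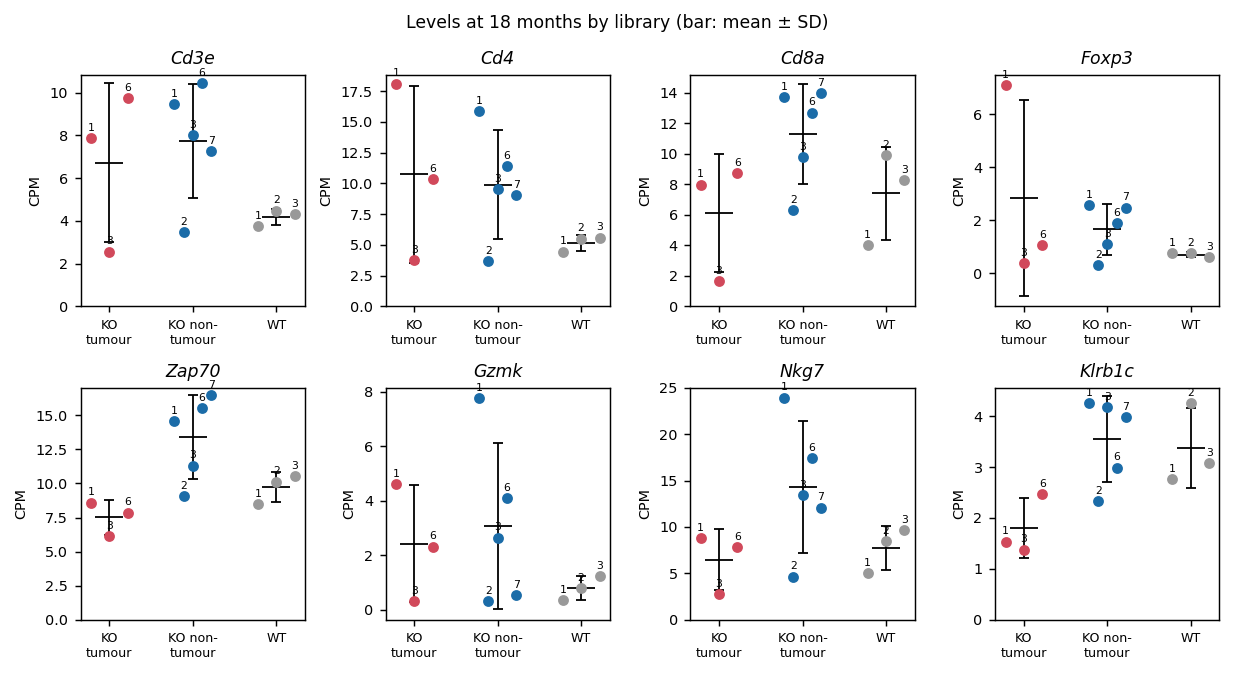
Level in CPM of 8 T and NK cell genes in each library at 18 months, for KO tumours, KO non-tumour lung and WT lung, with the library number at each point and a bar for the mean ± SD. Foxp3 in tumour 1 stands apart from the other tumours, and the 3 tumours lie below the 5 non-tumour lungs for Zap70.

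Within animals, most members were lower in the tumour than in the lung of the same mouse, in each of the 3 pairs. Tumour 1 lay below non-tumour lung 1 in 31 of 37 members, with a median log2 ratio of −0.48, tumour 3 below lung 3 in all 37 (−1.65), and tumour 6 below lung 6 in 35 (−0.57). In 29 members all 3 tumours were lower than the lung of the same animal, in 0 all were higher, and 8 were mixed. The fit with the animal as a block called 0 members. The members with a higher level in tumour 1 than in its lung were Foxp3, Il7r, Icos, Cxcr6, Ccr7 and Cd4, and those higher in tumour 6 were Cd28 and Ncr1, by little.

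**Figure D5:**
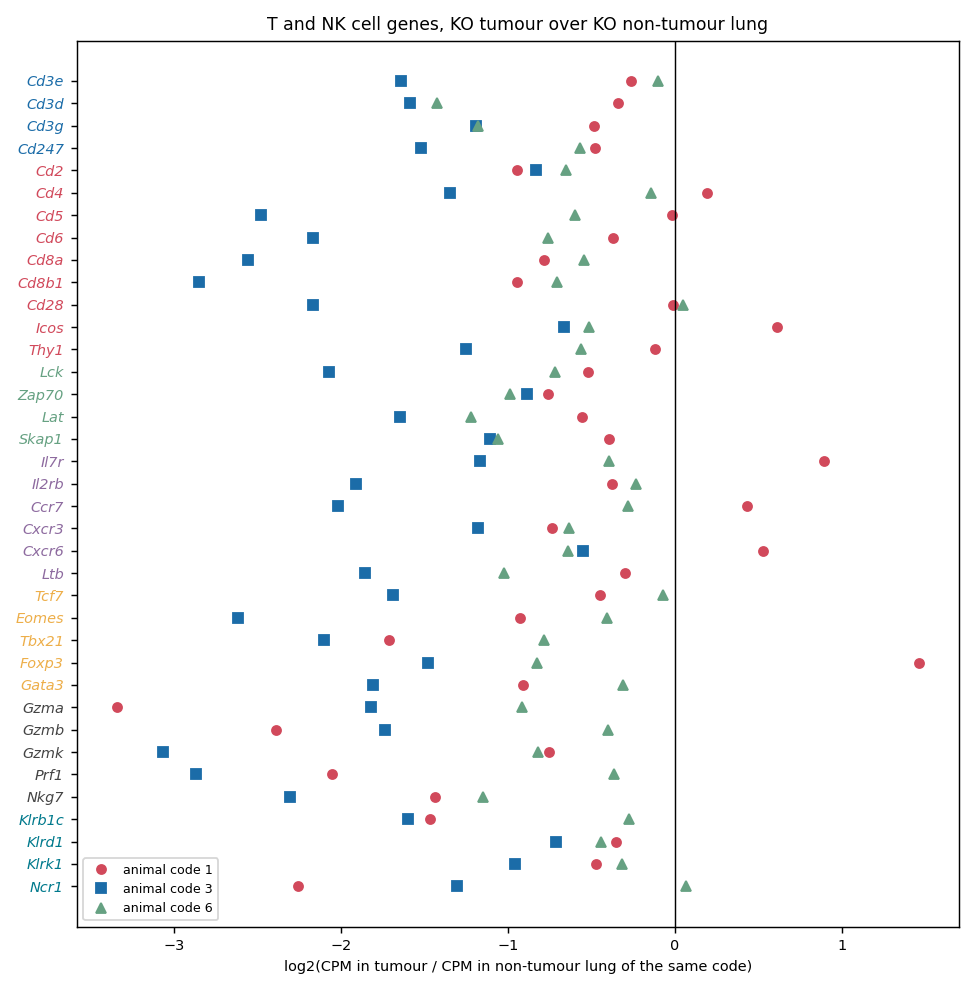
Log2 ratio of the CPM in each tumour to the CPM in the non-tumour lung of the same animal code, for 37 T and NK cell genes, with 1 symbol per animal. All 37 squares (animal 3) lie left of 0, and the circle of animal 1 lies farthest right for Foxp3.

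The tumours differed from lung in much else. Lung epithelial markers summed to 65630, 90420 and 38880 CPM in tumours 1, 3 and 6, against 15590 to 26230 CPM in KO non-tumour lungs, with 5 of 6 called higher. Endothelial markers summed to 1011, 1024 and 2819 CPM in tumours, against 2531 to 3860 CPM in non-tumour lungs, with 1 of 5 called lower and none above 0. Markers of all leukocytes summed to 1178, 551 and 819 CPM in tumours, against 645 to 1081 CPM in non-tumour lungs. In tumour 1 the alveolar macrophage markers reached 13390 CPM, 12240 of it from Chil3, and B and plasma cell markers 2085 CPM, while in the other tumours these were 2454 to 2513 and 406 to 456 CPM. Neutrophil markers summed to 86.8, 59.4 and 82.9 CPM in tumours, against 117 to 169.9 CPM in non-tumour lungs, with 2 of 6 called lower. Erythroid markers, which follow the blood in a sample, summed to 884, 1071 and 2897 CPM in tumours, against 2182 to 4859 CPM in non-tumour lungs, with 1 of 5 called lower. Single globin genes set animals 6 and 7 apart. Hba-a1 had 0 CPM in tumour 6 and lung 6 and 148 CPM in lung 7, against 501 CPM or more in every other library. Hbb-bs lay above Hbb-bt only in tumour 6 (617 and 107 CPM), lung 6 (653 and 184 CPM) and lung 7 (306.5 and 121 CPM). Why these libraries differ, and its part in the results, was not tested. ILC2 markers summed to 188, 162 and 106 CPM in tumours, against 69.2 to 80.3 CPM in non-tumour lungs, with 2 of 7 called higher. Of these sums, Arg1 made up 95.1 CPM in tumour 1 and Areg 94.0 CPM in tumour 3. The cytokine genes Il5 and Il13 had 0 to 0.550 CPM in tumours and 0 to 0.503 CPM in non-tumour lungs. Mast cell and basophil markers summed to 2.70, 0.355 and 2.63 CPM in tumours, against 2.14 to 5.2 CPM in non-tumour lungs, with none called. The part of these cells, or of blood, in the results on tumours was not tested. Among 55 comparison genes of T and NK cells, 2 rose and 3 fell. Il18rap, a chain of the interleukin 18 receptor, had 59.4, 26.0 and 28.6 CPM in tumours, against 11.4, 9.86, 11.9, 13.3 and 14.6 CPM in non-tumour lungs (1.62 ± 0.26, adjusted p = 0.00531, edgeR). Itgae, the integrin CD103 of epithelial T cells and some dendritic cells, had 25.5, 13.5 and 12.9 CPM in tumours and 9.01, 7.33, 6.26, 10.4 and 10.5 CPM in non-tumour lungs (0.98 ± 0.26, adjusted p = 0.0379, edgeR). Granzyme M, Gzmm, fell (−1.30 ± 0.23), and the NK receptor gene Klre1 fell too (−1.41 ± 0.37), as did S1pr1, a receptor of lymphocyte exit that endothelium expresses strongly (−1.0 ± 0.28), picked out after its values were seen.

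Against WT lung the tumours gave no called member. Of 37 tested 0 were called, where 15.4% of all genes were, and limma called 0. An unadjusted p under 0.05 was reached by 2, Klrb1c and Cd2, both lower, where 33.7% of all genes reached it. The median log2 fold change was −0.18, with 12 members above 0, and it was 0.09 without tumour 3, so that its direction rests on that library. Klrb1c had 1.54, 1.38 and 2.47 CPM in tumours, against 2.77, 4.26 and 3.08 CPM in WT lungs, without overlap (−0.91 ± 0.32, adjusted p = 0.0976, edgeR); DESeq2, which called 23.8% of all genes, called it alone. Cd2 had 18.8, 15.5 and 14.8 CPM in tumours and 19.5, 22.9 and 19.4 CPM in WT lungs (−0.34 ± 0.13), and Gzma stood at −1.25 ± 0.62. Tumour 3 lay below all WT lungs in 36 of 37 members, whereas tumour 1 lay above all of them in 21 and below in 8, and tumour 6 above in 11 and below in 10. The like counts over all genes were not made. Without tumour 6 the members called were Gata3, Gzma, Gzmb and Klrb1c, lower, and without tumour 3 they were Cd3e and Cd4, higher. The shares of all genes called in these fits are not given here. Of 55 comparison genes 4 rose and 2 fell. Il18rap (1.96 ± 0.33), Itgae (1.67 ± 0.32) and Cd244 (0.90 ± 0.22) rose, Cd226 fell (−0.75 ± 0.18), and so did Gzmm (−1.14 ± 0.30), picked out after its values were seen. This comparison shares its tumours with the one against KO non-tumour lung.

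From 10 to 18 months no member was called in either genotype. In KO, non-tumour lung at 18 months against lung at 10 months, 0 of 37 members were called (0% of all genes), and 16 had an unadjusted p under 0.05, all higher at 18 months, where 5.06% of all genes did. The median log2 fold change was 0.55, with 33 members above 0. In WT lung 0 of 36 were called (0% of all genes), 7 had an unadjusted p under 0.05, all higher, where 5.44% of all genes did, and the median was 0.27 with 29 above 0. limma called 0 in both and DESeq2 0 in WT. In KO DESeq2 called Cd3e (adjusted p = 0.0249), at 0.0479% of all genes. Cd3e had 9.47, 3.47, 8.0, 10.4 and 7.28 CPM in KO lungs at 18 months, against 3.12, 3.09 and 2.72 CPM at 10 months (1.38 ± 0.31, adjusted p = 0.893, edgeR). Gzmk (3.38 ± 1.02), Eomes (2.00 ± 0.59), Cxcr3 (1.31 ± 0.39) and Nkg7 (1.09 ± 0.41) were the other members with an increase of over 1 on the log2 scale in KO, each with KO lung 2 within or below the range of the 10-month lungs. In WT lung the smallest p values were those of Thy1 (0.40 ± 0.11), Lat (0.51 ± 0.15), Cxcr3 (0.68 ± 0.21) and Il7r (0.32 ± 0.10), each with all 3 lungs at 18 months above all 3 at 10 months. These genes were picked by their p, which favours such a gap. Of 37 members, 7 were higher without overlap (5.44% of all genes with reads) and 1 was lower (4.53%). Of the comparison genes 0 were called by edgeR or DESeq2 in either genotype (15 in KO and 7 in WT had an unadjusted p under 0.05), with Itgal (0.68 ± 0.19) and Il2rg (0.39 ± 0.12) first in KO and Cd160 (1.20 ± 0.32) and Cd69 (0.40 ± 0.14) first in WT.

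Whether the difference between KO and WT lung changed between the adult ages was tested as an interaction of genotype and age. It called 0 of 37 members (0% of all genes) and DESeq2 and limma called 0. Cd3e alone had an unadjusted p under 0.05, where 2.89% of all genes did: KO over WT was 0.88 at 18 months and −0.35 at 10 months, a difference of 1.23 ± 0.41 (adjusted p = 1.00, edgeR). For no member was the difference between the ages shown to exceed the spread between lungs.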

How the data were processed

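Bulk RNA-seq of total lung RNA was analysed in 23 libraries. The authors trimmed reads with Trimmomatic 0.36, aligned them with STAR 2.5.2b to mm10 and quantified genes with RSEM 1.3.0, per the submitters' processing notes, which give no order or settings. The deposited tables hold expected counts per gene, as RSEM estimates them, and FPKM, which the authors scaled for gene length and depth. Expected counts were rounded to whole numbers and used for all tests; FPKM served to compare levels between genes and in an alternative test.

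Only the libraries of the 2 groups compared entered a fit (for the interaction of genotype and age, the 14 libraries of its 4 groups), made in edgeR 4.0.16 under R 4.3.3 (quasi-likelihood, robust, TMM scaling, low genes removed by filterByExpr), with p-values adjusted over all genes tested. The standard error was taken as the log2 fold change divided by the root of its F statistic. Levels are CPM after TMM scaling over all libraries. Counts of members by single library or by animal pair were made for the members only, with no such count over all genes. Alternatives were DESeq2 1.42.0, RLE scaling, no filter, one fit over all 23 libraries, limma 3.58.1 on log2(FPKM + 0.1) and log2(FPKM + 1), whose fold changes are on that scale and understate changes of low genes, a replicate block, and leaving out each library. On simulated counts DESeq2 made more false calls than its nominal share, so its counts are given as alternatives only. Intervals on few reads are exact binomial intervals and cover counting error only.

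The members and all gene lists were chosen with earlier results of these data known. All members are described; of the other T and NK cell genes the text names up to 4 with the smallest adjusted p among those called in a comparison, or 2 with the smallest p where none was called. Tumour and non-tumour libraries 1, 3 and 6 were paired by the animal code in the labels; for lungs 6 and 7 the number in the title differs from the code, and the code was used. The deviations of the paired libraries correlated at 0.465, 0.00494 and 0.0588, and 1 of 3 was closest to its own number. Other equal numbers are not stated to mark a shared animal or day. The labels do not tell how the animals were spread over preparations, so that p-values cover only the spread among the libraries, which may be technical. No pair of libraries of 1 group agreed within counting noise (28 pairs, chi-square per degree of freedom 6.72 to 228). Promoter windows and gene positions came from RefSeq and GENCODE tables of GRCm38. Trac, Trbc1, Trbc2 and Trdc are not analysed here. A few of the other genes that the naming rule reaches are not reported here.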

Additional observations from a re-analysis of the deposited data

How the results depend on the processing

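The 69 values of members that were called gave 968 values under the alternatives, of which 961 kept their direction and their side of the threshold, 7 lost the call and 0 reversed. All 7 were Zap70 in tumours against KO non-tumour lung. Members that were not called gained a call under some alternatives, as the counts that follow show. Members called in that comparison numbered 1 in the fit reported, 6 with DESeq2 and 10 in a fit over all 23 libraries, and leaving out a library gave 0 to 9: 9 without tumour 6, 1 (Ltb in place of Zap70) without tumour 1, and 0 without tumour 3 or non-tumour lung 1, 3, 6 or 7. Against WT lung, tumours had 1 member called with DESeq2, 2 in the fit over all libraries, and 0 to 4 without a library (4 without tumour 6, 2 without tumour 3); the median over members ran from −0.52 to 0.09 and turned its direction without tumour 3. Only DESeq2 called a member (1 each) at 10 months, KO against WT, and in KO lung between 18 and 10 months. Among the alternatives, shares of all genes called are given above for DESeq2 only, so the other counts are not set against all genes.

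Pairing by animal code, as a replicate block, left 0 members called in tumours against KO non-tumour lung and 1 (Gzma) against WT, where equal numbers are not stated to mark a shared animal; it changed no other count of members called by more than 1.5 times. At E19.5 the median was −0.11 with limma on log2(FPKM + 1), and −0.417 to −0.0161 without a library. Medians between 10 months and E19.5 were 3.43 in KO and 3.28 in WT lung with limma on log2(FPKM + 0.1), with or without the filter, 1.67 and 1.45 on log2(FPKM + 1), and 4.00 to 4.22 in KO and 3.48 to 4.14 in WT without a library; the pseudocount lowers fold changes of genes near 0. In the E19.5 libraries 31 members in KO and 30 in WT lay under 1 FPKM, and 16 of 37 members had enough reads to be tested.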

Other observations

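Ratios between members within a library were also computed, all in FPKM. Cd8a over Cd4 was 0.438, 0.442 and 0.836 in tumours 1, 3 and 6. It was 0.857, 1.70, 1.01, 1.10 and 1.53 in KO non-tumour lungs 1, 2, 3, 6 and 7, and 0.899, 1.79 and 1.47 in WT lungs at 18 months. Each tumour thus lay below every lung of that age. In the ratios that follow, the CD3 chains are Cd3e, Cd3d and Cd3g, without Cd247. The summed granule genes over the summed CD3 chains stood at 0.779, 1.02 and 1.62 in the tumours and at 1.09 to 1.79 in KO and 1.27 to 1.68 in WT lungs. The NK receptors over the CD3 chains came to 0.187, 0.413 and 0.398 in the tumours, 0.242 to 0.388 in KO and 0.353 to 0.412 in WT lungs. Foxp3 over the CD3 chains was 0.0605 in tumour 1 and 0.0286 in KO lung 7, and 0.00523 to 0.0166 in the other libraries of that age. The granule genes over the CD3 chains gave 1.31 to 2.84 in KO lungs at 10 months, against 7.84 to 16 in KO embryos, and 1.52 to 1.71 in WT lungs at 10 months, against 8.31 to 22.2 in WT embryos. In embryos Cd3e, Cd3d and Cd3g had 0 to 9 reads each per library, so the embryo ratios rest on few reads. These ratios were looked at after the values were seen and were not tested.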
